A study of Mus musculus with 6 samples.

Results

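The genes of the MYC transcription factor network and of polyamine synthesis were followed through a culture of antigen-activated Th17 cells. The members were fixed by name: Myc, Mycn, Max, Mxd1, Mxd3, Mxd4, Odc1, Srm, Sms and Amd1. Rows of the array table were taken where the listed name was one of these symbols or an older synonym of a single gene. This gave 16 probes for 9 of the 10 members, among 28865 genes on the array. Mxd1 was listed in part as MAD and Mxd4 in part as 2810410A03RIK. No row was named Amd1, which was not analysed here.

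Illumina bead arrays were used to measure RNA. The day 0 sample was CD4+ T cells before activation, here called naive. Th17 cells, helper T cells named for interleukin 17, were taken 2, 4, 7, 12 and 18 days after activation with TRP-1 peptide. All cells came from mice labelled RAG1- BW TRP-1 TCR, aged 6 weeks, which lack RAG1 and carry a T cell receptor for TRP-1, a pigment cell protein. Each day had 1 sample, so no difference has a replicate check, a standard error or a p-value. The sources used here do not say whether cells of several mice were pooled.

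MYC is a transcription factor that pairs with MAX to bind the DNA sequence CACGTG, the E-box, and drives growth, ribosome production and metabolism in activated T cells. The MXD proteins pair with the same MAX partner, bind the same sites and bring in SIN3 corepressors, so they oppose MYC. Polyamine synthesis is a classical MYC output. ODC1 makes putrescine from ornithine, AMD1 supplies the decarboxylated S-adenosylmethionine that donates the aminopropyl group, SRM makes spermidine and SMS makes spermine. Spermidine is also used to modify the translation factor eIF5A.

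Signals are given on the normalized log2 scale after background correction and quantile normalization, on which probes that were detected on no array had a median of 4.28. A probe was detected where its detection p was below 0.01. A gene is called higher or lower where the brighter array detected it and the arrays differed at least 2-fold, that is by 1 log2 unit. Each gene is represented by its brightest probe. The number of arrays limits the precision. As a yardstick of measurement error, pairs of probes to 1 gene disagreed on a difference between 2 arrays with an SD of 0.251 to 0.433 log2 units, over 1734 genes. This yardstick is 1 SD, which error alone often exceeds, so a difference beyond it is not by itself evidence of a change. It covers neither biological spread nor probes below detection, nor error that all probes of an array share.

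Marker genes of T cells and of other cells changed in sum along the culture. All 15 T cell identity genes on the array were detected on every array, and their summed intensity was 16620 on day 0, 21633 on day 2, 37465 on day 4, 51358 on day 7, 42530 on day 12 and 43618 on day 18. The 18 erythroid and platelet genes summed to 76128 on day 0 with 16 detected, to 23848 on day 2 and to 500 on day 18. The 13 neutrophil genes summed to 11986 on day 0, to 32780 on day 2, to 880 on day 12 and to 6841 on day 18, where Ctsg alone was detected, at 12.73. Of these, 8 were higher on day 2 than on day 0 and 3 lower, Mpo, Prtn3 and Ctsg. Of the erythroid and platelet genes, 0 were higher and 13 lower in that comparison, where 8.16% and 9.75% of all genes were. The 16 macrophage genes summed to 11962 on day 0, to 17684 on day 2 and to 114 on day 18, with Msr1 and Itgam undetected throughout. On day 2 against day 0, 4 of them were higher, among them Lyz1 and Lyz2, and 7 lower, among them Csf1r, Mrc1 and Vcam1, with a median of -0.86. The 11 mast cell and basophil genes summed to 3029 on day 0, 1752 on day 2, 1835 on day 4, 7168 on day 7, 4271 on day 12 and 1087 on day 18. Day 7 was the array on which Mxd1 and Mxd3 were highest and Srm lowest. On it, 5 mast cell and basophil genes were higher than on day 0 and 2 lower, Kit and Gata2. Of all genes, 9.66% were higher and 10.2% lower. Fcer1a was 18.0-fold, Cpa3 17.4-fold and Cma1 9.39-fold higher, while Kit was 10.1-fold lower. Mcpt8, Tpsb2 and Hdc were not called. Hbb-b2, Epb42 and Mmp8 of these lists were likewise detected on no array. Their part in the results below was not tested. Fewer cells of a type and less RNA per cell cannot be told apart in such bulk samples. Scaling the arrays on the T cell identity genes moved the median difference of all genes from day 0 to between -1.49 and -0.36 over the 5 activated days, against -0.02 to 0.04 with quantile normalization.

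Of the 9 members on the array, 7 were detected, each on all 6 arrays by its brightest probe. Mycn, the MYC relative of embryonic and neural cells, was detected on none, with values of 4.19 to 4.27. Sms, spermine synthase, was also detected on none by its single probe, with values of 4.22 to 4.36. These values show no signal above background for these probes and say nothing further about the transcripts.

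**Figure D1:**
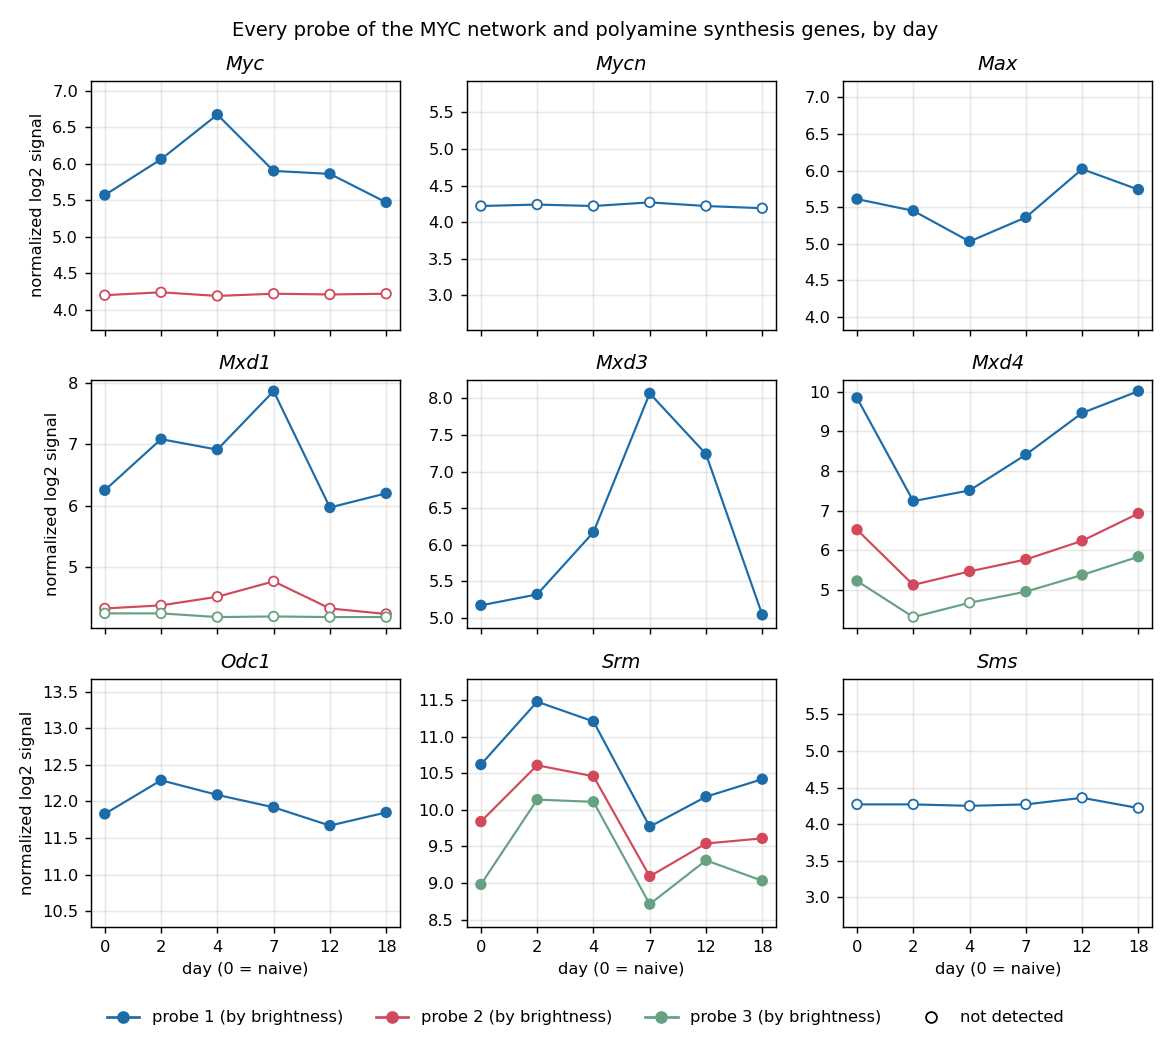
Normalized log2 signal of every probe of the 9 member genes on the array, by day, with 1 point per array, filled where detected and open where not. Myc peaked on day 4, Mxd1 and Mxd3 on day 7, Mxd4 was lowest on day 2, and the 3 Srm probes followed each other, whereas Mycn and Sms were not detected. Each panel has its own vertical range.

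Myc itself was measured close to background. Its brighter probe gave 5.57 on day 0, 6.06 on day 2, 6.67 on day 4, 5.90 on day 7, 5.86 on day 12 and 5.47 on day 18. Day 4 stood above the other days, and the remaining 5 days followed in steps of 0.04 to 0.28 that did not exceed the yardstick. Days not next to each other in that order could differ beyond it. Day 2 was 0.49 above day 0, and day 18 was 0.38 below day 12 and 0.59 below day 2. At day 4 Myc was 2.15-fold higher than on day 0, a log2 difference of 1.10. At day 2 the difference from day 0 was 0.49, and by day 18 it was -0.10. The step to day 7 was -0.77 against day 4.

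The deposited signals show how narrow this window was. They were 131.1 on day 0, 132.2 on day 2, 178.5 on day 4, 137.3 on day 7, 131.5 on day 12 and 104.3 on day 18, on arrays whose median signal was 87.2 to 93.4. Before correction, days 0 and 2 were thus level. The day 4 call was lost under the 3-fold rule and under 5 other settings, with log2 differences of 0.89 after median scaling, 0.79 after scaling on reference genes, 0.54 without background correction, 0.74 with an offset of 50 and 0.03 after scaling on T cell identity genes. A second Myc probe was detected on no array, at 4.19 to 4.24.

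Max, the shared partner of MYC and the MXD proteins, was lowest on day 4, when Myc was highest, with quantile normalization. It gave 5.61 on day 0, 5.45 on day 2, 5.03 on day 4, 5.36 on day 7, 6.02 on day 12 and 5.74 on day 18. With that normalization the whole range was 0.99 log2 units, and no comparison reached 2-fold. Day 4 was 0.58 below day 0 and day 12 was 0.65 above day 7, both beyond the yardstick. Without background correction these log2 differences were -0.21 and 0.27. Its signals lay between 106.5 and 138.0, so these values too were close to background. After scaling on T cell identity genes its log2 differences from day 0 were -1.68 on day 4 and -1.74 on day 7. They were -1.03 on day 12 and -1.07 on day 18, all beyond 2-fold. That scaling put Max lowest on day 7, and Myc at 0.08 on day 2 and 0.03 on day 4 against day 0.

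The promoters of Max and Mxd4 are shown because both hold the E-box that the proteins of this network bind, and that of Mxd3 because it holds none although the gene had the widest range of the members. The windows are RefSeq sequences of GRCm38.p6, from 250 bases before to 50 after the start, on the gene's strand, and are given at chr12:76962199-76962498 (minus strand) for Max, chr5:34187661-34187960 (minus strand) for Mxd4 and chr13:55329682-55329981 (minus strand) for Mxd3. Capitals mark CACGTG, which reads the same on both strands.
Max: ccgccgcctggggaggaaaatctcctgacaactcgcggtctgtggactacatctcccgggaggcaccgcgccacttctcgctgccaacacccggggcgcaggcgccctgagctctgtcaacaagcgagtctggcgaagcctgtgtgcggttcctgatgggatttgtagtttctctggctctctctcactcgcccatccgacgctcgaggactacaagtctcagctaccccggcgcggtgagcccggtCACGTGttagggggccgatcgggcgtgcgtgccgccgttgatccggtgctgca
Mxd4: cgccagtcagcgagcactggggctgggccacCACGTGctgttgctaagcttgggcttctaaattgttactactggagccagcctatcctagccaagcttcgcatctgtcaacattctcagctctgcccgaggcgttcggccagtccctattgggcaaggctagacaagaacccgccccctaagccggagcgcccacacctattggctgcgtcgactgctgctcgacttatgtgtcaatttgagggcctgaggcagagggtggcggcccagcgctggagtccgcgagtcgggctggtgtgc
Mxd3: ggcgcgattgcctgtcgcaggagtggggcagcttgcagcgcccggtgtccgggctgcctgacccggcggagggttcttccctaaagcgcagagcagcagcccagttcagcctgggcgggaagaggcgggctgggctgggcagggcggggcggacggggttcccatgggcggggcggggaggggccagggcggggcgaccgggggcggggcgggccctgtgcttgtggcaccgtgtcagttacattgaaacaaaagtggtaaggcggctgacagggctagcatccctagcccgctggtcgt

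The E-box begins 3 bases before the start in Max and 219 bases before it in Mxd4. Start here means the point on which the window was built. In Mxd4 it is also where the RefSeq gene begins. The RefSeq gene begins elsewhere in Max, at 76962323, and in Mxd3, at 55329900. Counted from there, the E-box of Max lies within the gene. The table matched 8 of the 10 members, with 9 promoters, and 3 of these held CACGTG: those of Max and Mxd4, and 1 of the pair of Sms promoters, 196 bases before the start. Of all 32851 promoters in the table, 7.15% held it. Myc and Srm had no entry. A match is a description of the letters in this window only.

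Mxd4, a MYC antagonist of resting and differentiating cells, was lowest 2 days after activation and higher again on later days. Its brightest probe, listed under the older name, gave 9.84 on day 0, 7.24 on day 2, 7.51 on day 4, 8.41 on day 7, 9.46 on day 12 and 10.01 on day 18. Days 2 and 4 were the low days, and days 12 and 18 each lay within the yardstick of day 0, though day 18 was 0.55 above day 12, beyond it. Mxd4 was lower than on day 0 by 6.05-fold on day 2, 5.01-fold on day 4 and 2.69-fold on day 7. At day 18 it was 6.80-fold higher than on day 2, a comparison that does not use the naive array, and this log2 difference of 2.77 lay between 1.84 and 2.86 under the 8 other settings.

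The second Mxd4 probe put the 6 days in the same order. It was at 6.52 on day 0, 5.13 on day 2, 5.47 on day 4, 5.77 on day 7, 6.24 on day 12 and 6.93 on day 18. Its difference from day 0 on day 2 was -1.39, against -2.60 on the brightest probe. The third was undetected on days 2 and 4, stood at 5.38 on day 12 and at 5.23 on day 0, an order turned against the other probes, and was highest on day 18 at 5.84. On day 18 these probes were 0.41 and 0.60 above day 0, both beyond the yardstick, against 0.17 on the brightest. With the mean of the 3 probes the day 7 difference from day 0 shrank to -0.82, under 2-fold, and that of day 12 against day 7 to 0.65.

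Mxd3, an MXD protein linked to the S phase of proliferating cells, was at its highest on day 7. Its probe gave 5.17 on day 0, 5.32 on day 2, 6.17 on day 4, 8.07 on day 7, 7.24 on day 12 and 5.04 on day 18. Days 7, 12 and 4 stood apart from each other and from the rest, and days 2, 0 and 18 lay together within the yardstick. Mxd3 was higher than on day 0 by 2.01-fold on day 4, 7.47-fold on day 7 and 4.2-fold on day 12. It was 3.71-fold higher on day 7 than on day 4, and 4.6-fold lower on day 18 than on day 12. On days 0, 2 and 18 Mxd3 was close to background, with deposited signals of 115.3, 107.8 and 96.7, against 360 on day 7. Without background correction its log2 differences from day 0 were 0.42 on day 4, 1.65 on day 7 and 1.04 on day 12. Day 18 against day 12 was then -1.09.

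The day 4 value of Mxd3 sits on the 2-fold limit and its call was lost under the 3-fold rule and under 5 other settings, with a value down to -0.02 after scaling on T cell identity genes. The day 7 difference from day 0, 2.90, was 1.49 after that scaling, still above 2-fold, while the day 12 difference became 0.69. The 13 proliferation genes on the array summed to 10938 on day 0, 12374 on day 2, 14197 on day 4, 16066 on day 7, 12430 on day 12 and 4478 on day 18, so their sum too was highest on day 7 and lowest on day 18. Single genes differed. Pcna and Rrm2 were highest on day 7, Mcm3 on day 4, at 9.31, and Mcm2 and Mcm5 on day 0, at 9.89 and 12.20. On day 7 against day 4, 0 of the list were higher and 0 lower, where 2.9% and 2.8% of all genes were. The part of these genes in the Mxd3 values was not tested.

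Mxd1, the founding MXD antagonist of MYC, was also highest on day 7. Its brightest probe gave 6.25 on day 0, 7.08 on day 2, 6.91 on day 4, 7.86 on day 7, 5.97 on day 12 and 6.20 on day 18. Day 7 stood above all others, and days 0, 18 and 12 lay together at the low end within the yardstick. At day 7 Mxd1 was 3.06-fold higher than on day 0, and on day 12 it was 3.71-fold lower than on day 7. After scaling on T cell identity genes the first difference was 0.12 on the log2 scale, while the second was -1.87. The other Mxd1 probes were detected on no array, although the one listed as MXD1 had its highest value, 4.77, on day 7 with a detection p of 0.0235.

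Mxd1 and Mxd3 had their highest signal on day 7 and Mxd4 on day 18. Mxd4 was called lower than on day 0 on days 2, 4 and 7, whereas Mxd3 was called higher on days 4, 7 and 12 and Mxd1 on day 7. At day 18 none of the 3 differed 2-fold from day 0, with log2 differences of -0.13 for Mxd3, -0.04 for Mxd1 and 0.17 for Mxd4. After scaling on T cell identity genes these were -1.15, -1.31 and -1.05, each called lower, and Mxd4 was also called lower on day 12, at -1.71. Mxd4 on day 18 changed sign after median scaling too, at -0.37, and Mxd3 after scaling on reference genes, at 0.02.

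**Figure D2:**
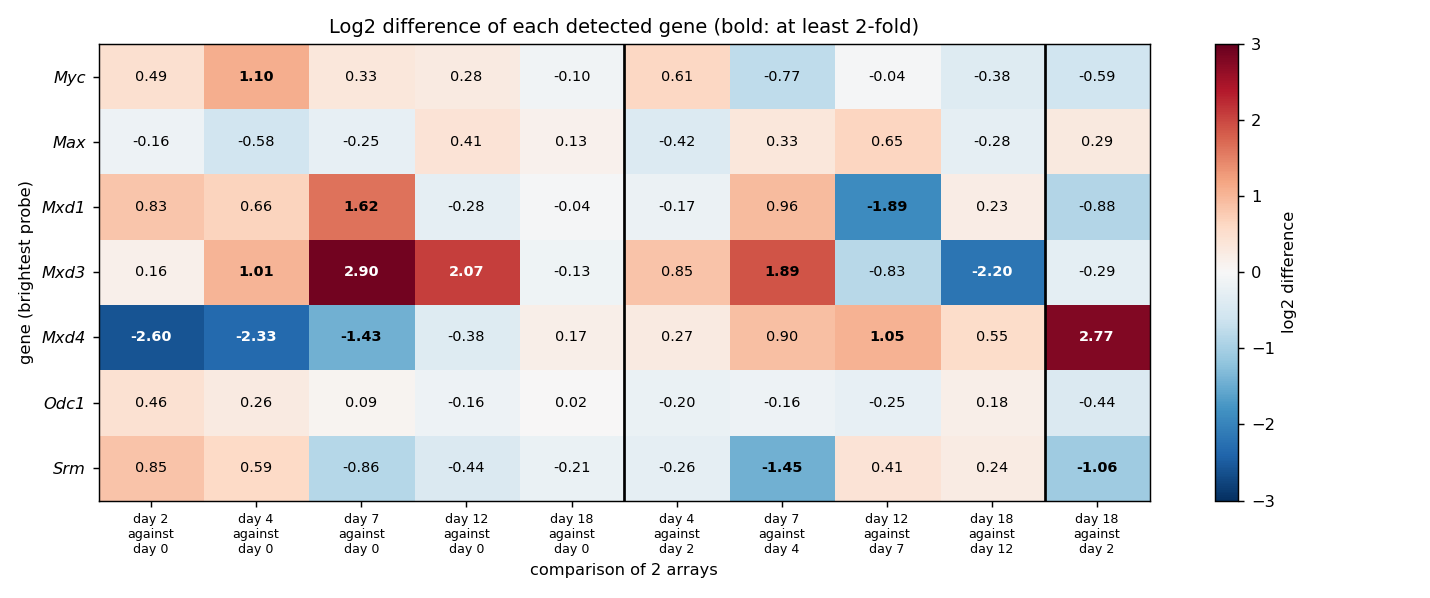
Log2 difference of the 7 detected members (rows) in the 10 comparisons of 2 arrays (columns), the later day minus the earlier, with values of at least 2-fold in bold. The largest differences are those of Mxd3 on day 7 and Mxd4 on day 2 against day 0 and of Mxd4 on day 18 against day 2.

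Odc1, ornithine decarboxylase, the first and rate-limiting enzyme of polyamine synthesis, was bright on every array and stayed within 2-fold in all 10 comparisons. Its promoter is shown because the gene is a textbook MYC target. The RefSeq window of GRCm38.p6 is chr12:17544623-17544922 (plus strand), and capitals mark CACGCG and its reverse complement CGCGTG, variants of the E-box.
Odc1: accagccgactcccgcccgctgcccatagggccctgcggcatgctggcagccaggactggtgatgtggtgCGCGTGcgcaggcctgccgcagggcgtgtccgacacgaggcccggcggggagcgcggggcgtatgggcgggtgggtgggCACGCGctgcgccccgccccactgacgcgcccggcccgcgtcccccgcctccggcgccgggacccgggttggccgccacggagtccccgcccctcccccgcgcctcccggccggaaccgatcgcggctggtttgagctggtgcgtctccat

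The variants begin 180 and 101 bases before the start on which the window was built, and the window holds no CACGTG. The RefSeq gene begins at 17544808, which is not that point. At least 1 of the variant forms was present in 9.27% of all promoters of the table.

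Odc1 gave 11.83 on day 0, 12.29 on day 2, 12.09 on day 4, 11.92 on day 7, 11.67 on day 12 and 11.85 on day 18. The range was 0.62 log2 units, and no pair of neighbours, with the days ordered by level, differed beyond the yardstick. At day 2 the difference from day 0 was 0.46, just above the yardstick of 0.433 for that pair, and it was 0.31 to 0.46 under the 8 other settings. Day 18 was 0.44 below day 2. After scaling on T cell identity genes the log2 difference of Odc1 from day 0 was -1.40 on day 12, where quantile normalization gave -0.16. Its deposited signals were 3887.5 on day 0, 4830.3 on day 2, 4869.7 on day 4 and 2898.9 on day 18.

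Srm, spermidine synthase, changed more than Odc1 and did so between activated days. Its brightest probe gave 10.62 on day 0, 11.48 on day 2, 11.21 on day 4, 9.77 on day 7, 10.18 on day 12 and 10.42 on day 18. Days 2 and 4 were high and day 7 was the low point, below the naive value. Srm was 2.73-fold lower on day 7 than on day 4, and 2.09-fold lower on day 18 than on day 2. The other probes of the gene gave 2.60-fold and 2.66-fold for the first of these, and for the second 1 of them was called, at -1.11, while the other, just under 2-fold, was not. The log2 difference of the first lay between -1.91 and -1.29 under the 8 other settings.

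Against day 0 the brightest Srm probe was 0.85 log2 units higher on day 2 and 0.86 lower on day 7, neither of them 2-fold. The second probe gave 0.77 and -0.76 for the same differences. The third was called higher on day 2, 2.24-fold, and on day 4, 2.20-fold, and was at -0.27 on day 7. All 3 Srm probes placed day 2 first, day 4 next and day 7 last, while day 0 came after day 4 on the brighter probes and next to last on the dimmest. Not every step of this order exceeded the yardstick. Day 2 was above day 4 by 0.15 on the second probe and 0.02 on the third, and day 7 was 0.27 below day 0 on the third, all within it.

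The members called were few, and the share among them was read against all genes by the same rule. At day 2 against day 0, 0 of 7 detected members were higher and 1 was lower, Mxd4, where 8.16% of 10939 genes were higher and 9.75% lower. At day 4, 2 were higher, Myc and Mxd3, and 1 lower, Mxd4, with 8.88% and 10.3% of all genes. At day 7, Mxd1 and Mxd3 were higher and Mxd4 lower, with 9.66% and 10.2% of all genes. At day 12, Mxd3 was higher and none lower, with 7.85% and 8.44%. At day 18 no member was called in either direction, with 8.74% and 9.57% of all genes.

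The 5 comparisons share the day 0 array, so they repeat each other in part. Median differences of the members from day 0 were 0.46, 0.59, 0.09, -0.16 and -0.04 on days 2, 4, 7, 12 and 18, against -0.01, 0, -0.02, 0.02 and 0.04 over all genes.

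Between activated days fewer genes were called. At day 4 against day 2 no member was called, where 2.19% of all genes were higher and 2.61% lower. At day 7 against day 4 Mxd3 was higher and Srm lower, 1 of 7 each way, where 2.9% and 2.8% of all genes were called. At day 12 against day 7 Mxd4 was higher and Mxd1 lower, with 2.6% and 3.3% of all genes. At day 18 against day 12 Mxd3 was lower and none higher, with 1.53% of all genes higher and 2.64% lower. At day 18 against day 2 Mxd4 was higher and Srm lower, with 9.89% and 8.85%. With 7 members, a single call is 1 in 7, so these shares describe the genes and not the group.

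Other genes of the MYC network stayed mostly within 2-fold of day 0. Of 24 listed, 23 were on the array and 22 were detected. At day 2 against day 0, of 20 detected on either array 1 was higher and 1 lower, where 8.16% and 9.75% of all genes were. Mycbp, which encodes a MYC-binding protein, was 2.13-fold higher, and Mycbp2, a large ubiquitin ligase, 2.04-fold lower. At day 18 against day 2, of 18 detected on either array 3 were higher and 4 lower, where 9.89% and 8.85% of all genes were. The median was -0.09, against 0.02 over all genes.

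In that last comparison the 4 lower genes were Ruvbl2 and Ruvbl1, ATPases of chromatin complexes that MYC recruits, Mycbp, and Skp2, a ubiquitin ligase subunit. Ruvbl2 was 3.29-fold lower, at 8.22 on day 18, against 9.94 on day 2. The higher genes were Mycbp2, 3.27-fold, Mlxip, a MAX-like network factor that responds to glucose metabolites, 2.34-fold, and Fbxw7, the ubiquitin ligase subunit that marks MYC for degradation, 2.21-fold. Mlxip, Fbxw7, Ruvbl1 and Skp2 were named after their values were seen. Mycl, the third MYC family gene, was detected on days 0 and 4 only, at 5.86 and 5.06. Mxi1, a further MXD family gene, was detected on 3 arrays, at most at 5.53 on day 7, and Mnt, a related antagonist, also on 3, at most at 5.33 on day 12.

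Among the 3 detected genes that control or break down polyamines, Smox changed most. Smox, the oxidase that turns spermine back into spermidine, gave 8.36 on day 0, 10.95 on day 2, 11.40 on day 4, 10.97 on day 7, 7.86 on day 12 and 7.71 on day 18. Days 2, 4 and 7 were high and days 0, 12 and 18 low. It was higher than on day 0 by 6.00-fold on day 2, 8.22-fold on day 4 and 6.10-fold on day 7, and 8.61-fold lower on day 12 than on day 7. Of 9 genes listed, 6 were on the array and 3 detected, and Smox was the only 1 of these called in any of the 10 comparisons. By the same rule 8.16% of all genes were higher on day 2, 8.88% on day 4 and 9.66% on day 7, against day 0. On day 12 against day 7, 3.3% of all genes were lower, and on day 18 against day 2, 8.85%. Oaz2, an antizyme that targets ODC1 for degradation, ranged over 0.79 log2 units, and Paox, an oxidase of acetylated polyamines, over 0.55. Azin1, an antizyme inhibitor, was detected on no array by its brightest probe.

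Among the genes that supply ornithine and recycle methylthioadenosine, both arginases were detected early only. Arg1 was at 11.84 on day 2 and 10.03 on day 4 and undetected on the other 4 arrays. Arg1 signal on day 2 exceeded that on day 0 by at least 124-fold. On day 18 it was at least 117-fold lower than on day 2. Arg2 was detected on day 2 only, at 6.26, exceeding day 0 by at least 2.61-fold. Arg1 is also a gene of myeloid cells, and on day 2 against day 0 the neutrophil list had 8 genes higher and 3 lower, and the macrophage list 4 higher and 7 lower. Their part in the arginase values was not tested.

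The other genes of that list moved less. Oat, which converts ornithine for use outside polyamine synthesis, was 2.65-fold lower on day 18, at 9.95, against 11.36 on day 0. Adi1, an enzyme of methionine salvage, ranged from 8.53 on day 4 to 9.43 on day 18. Mat2a, which makes S-adenosylmethionine, was at 11.91 on day 2 and 11.67 on day 0. In all, 10 of the 14 genes of the list were detected, and on day 2 against day 0 the median was 0.30, against -0.01 over all genes.

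For the use of spermidine, Dhps, which attaches it to eIF5A as the first step of hypusine synthesis, was 2.04-fold higher on day 2, at 8.54, against 7.51 on day 0. It was at 8.48 on day 4 and 7.83 on day 18. Eif5a, the translation factor so modified, was at 12.00 on day 2, against 11.14 on day 0, a difference of less than 2-fold. Dohh, the enzyme of the second step, was detected on 2 arrays, at 5.06 on day 0 and 5.05 on day 18.

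**Figure D3:**
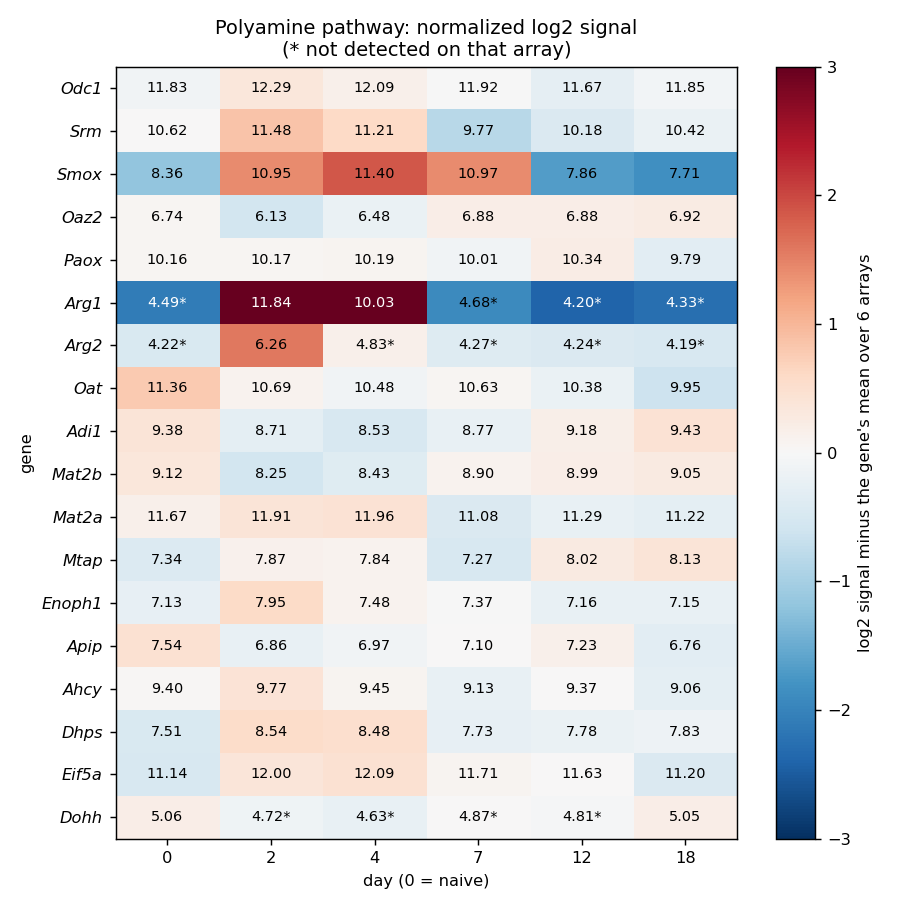
Normalized log2 signal of Odc1, Srm and the detected genes of the polyamine lists, by day. Numbers are the signals, colours the distance from the gene's mean over the 6 arrays, and a star marks an array that did not detect the gene. Smox is high on days 2, 4 and 7 and Arg1 on days 2 and 4, while Odc1 stays between 11.67 and 12.29.

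Genes known to be induced by MYC were followed through the same days. Of 42 listed, 38 were on the array and 35 detected. At day 2 against day 0, 5 were higher and 0 lower, where 8.16% and 9.75% of all genes were, with a median of 0.50, against -0.01 over all genes. The 5 were Slc2a1, the glucose transporter, 14.2-fold, Eno1, enolase, 10.2-fold, Ldha, lactate dehydrogenase A, 3.27-fold, Shmt2, mitochondrial serine hydroxymethyltransferase, 2.68-fold, and Tfrc, the transferrin receptor, 2.36-fold. At day 4 against day 0, 5 were again higher and 0 lower, where 8.88% and 10.3% of all genes were, and the median was 0.17, against 0 over all genes. Tfrc is also a gene of erythroid precursors, whose summed signal was 23848 on day 2, against 76128 on day 0, and its part in the Tfrc values was not tested.

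At day 7 against day 4 the calls of this list were all lower. None of 35 was higher and 9 were lower, where 2.8% of all genes were lower, and the median was -0.64, against 0 over all genes. The 9 were Polr1b, a subunit of RNA polymerase I, 2.59-fold, Ppan and Rrp12, ribosome assembly factors, 2.41-fold each, Rrp9, Nop56, Mybbp1a, Gnl3, Wdr43 and Ncl. All 9 were named after their values were seen. Other ribosome assembly genes of the list were not called, with log2 differences of -0.97 for Nop58, -0.72 for Bop1, -0.65 for Tcof1, -0.50 for Ddx21 and -0.49 for Npm1. Slc2a1 and Eno1 were not among them, at 10.99 and 12.82 on day 7, against 11.27 and 12.63 on day 4. This is the same step at which Srm was 2.73-fold lower and Myc 0.77 log2 units lower. The Myc difference was under 2-fold, and it was -0.40 without background correction. Its part in the values of this list was not tested.

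At day 18 against day 2, 0 of these 35 genes were higher and 9 lower, where 9.89% and 8.85% of all genes were, with a median of -0.60, against 0.02 over all genes. Tfrc was 3.11-fold lower, Rcc1, a nuclear transport regulator, 2.78-fold lower, and Cad, the enzyme of pyrimidine synthesis, 2.4-fold lower. At day 18 against day 0 the median was -0.16, against 0.04 over all genes, with 3 higher and 0 lower, where 8.74% and 9.57% of all genes were. Those higher were Slc2a1, 5.36-fold, Eno1, 4.78-fold, and Ccnd2, cyclin D2, 2.03-fold.

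**Figure D4:**
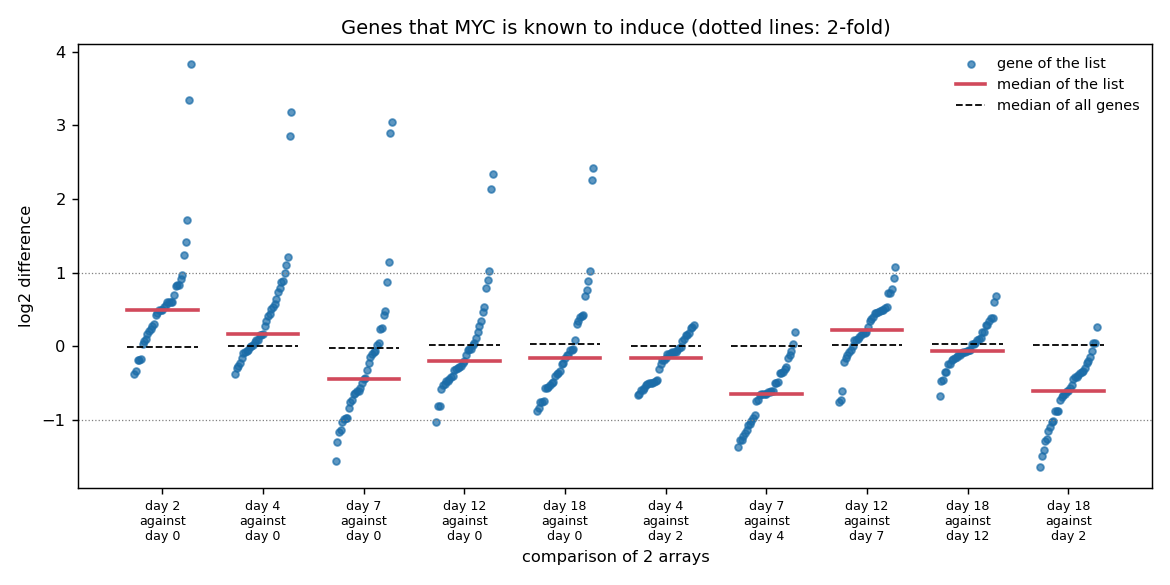
Log2 difference of each detected gene of the list of MYC-induced genes (points, sorted) in the 10 comparisons, with the median of the list (red) and of all genes (dashed). The list lies above all genes on day 2 against day 0, with a median of 0.50, and below them on day 7 against day 4, with a median of -0.64.

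Genes known to be repressed by MYC did not move as 1 group. Of 12 on the array 9 were detected, 8 of them on day 2 or day 0. On day 2 against day 0, 4 of these were higher and 1 lower, where 8.16% and 9.75% of all genes were. The median was 1 log2 unit, against -0.01 over all genes. Cdkn1a, the cell cycle inhibitor p21, was at 10.77 on day 2, against 5.71 on day 0, 33.2-fold higher, and stayed between 9.82 and 10.89 on all later days. Gadd45b and Ndrg2, stress and differentiation genes, were 5.67-fold and 5.59-fold higher. Gadd45a, a DNA damage response gene, was 5.62-fold lower on day 2 and 8.64-fold lower on day 18. At day 18 against day 2 Gadd45b was 7.41-fold lower, and Cdkn2b, the inhibitor p15, was at least 2.53-fold higher.

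The genes whose pattern was nearest to Srm over the 6 arrays were sought among 3359 genes detected on all arrays with a range of at least 1 log2 unit. Likeness was the root mean square distance between log2 profiles after centring each on its own mean. The nearest were Mrto4, a ribosome assembly factor, at a distance of 0.091 log2 units, Rrp9, a component of the U3 small nucleolar particle, at 0.098, Lmna, lamin A/C, at 0.116, Eef1e1, a protein of the tRNA synthetase complex, at 0.120, and Tmbim1 at 0.133. Mrto4 gave 9.39 on day 0, 10.02 on day 2, 9.93 on day 4, 8.58 on day 7, 8.94 on day 12 and 9.20 on day 18. As in Srm, days 2 and 4 were high and day 7 the low point.

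For Myc the nearest were 2610318N02Rik at 0.115, Nipal1 at 0.121, Thap12 at 0.126, Usp22, a histone deubiquitinase, at 0.130, and Neu3, a sialidase, at 0.134. All 5 were highest on day 4. For Odc1 those named here were Plcb3 at 0.139, Sec61a2 at 0.159, Hsp90aa1, a heat shock protein, at 0.188, and Csnk1d, a casein kinase, at 0.193. Odc1 itself had a range under the 1 log2 unit required of the genes searched, so the genes named as nearest all varied more than it did. With 6 arrays that share their processing, these distances only describe the samples.

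**Figure D5:**
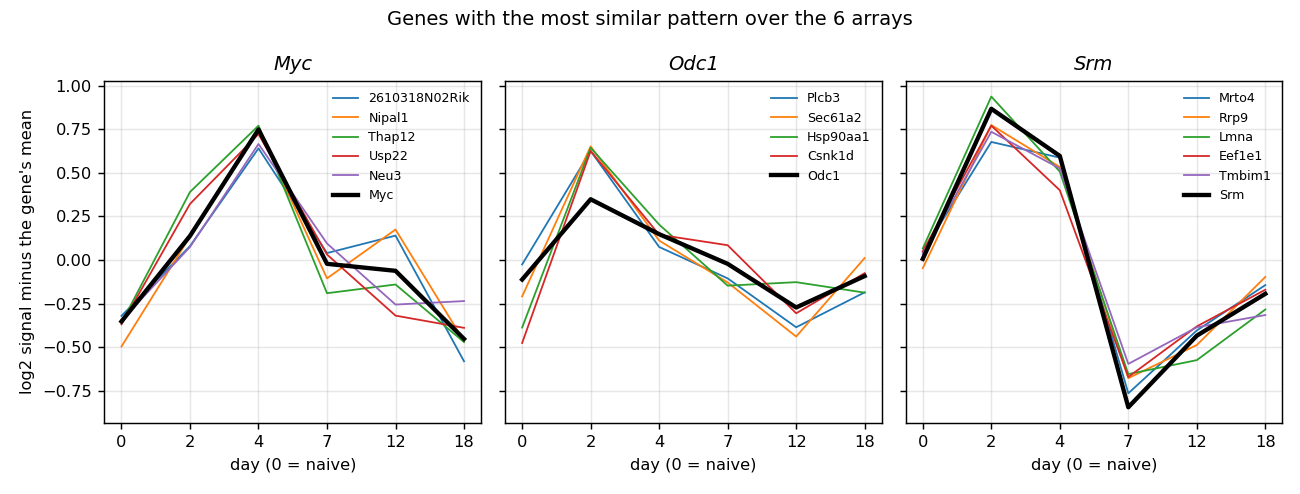
Log2 signal minus each gene's mean over the 6 arrays, by day, for Myc, Odc1 and Srm (black) and the genes named as nearest to each by root mean square distance (colours). The Srm group is high on days 2 and 4 and lowest on day 7, the Myc group is highest on day 4, and the genes nearest to Odc1 peak on day 2.

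The probe listed as AMD2, for a near copy of Amd1, was detected on 4 arrays, at 5.47 on day 0, 5.22 on day 2, 5.53 on day 4 and 5.34 on day 7. It was undetected on days 12 and 18. The sources used here do not say whether it also binds the Amd1 transcript, and it was not counted as a member.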

How the data were processed

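Per the file headers, the authors deposited 1 intensity per probe and array from GenomeStudio, without normalization or background subtraction, and a detection p-value. The sources used here do not say how that p-value was computed. A second deposited table holds the authors' normalized intensity values, on a linear scale, whose method is not stated; these served as an alternative after adding 16 and taking log2. Labelling was with biotin per the labels' protocols.

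Background correction and quantile normalization used limma 3.58.1 (function neqc, offset of 16) in R 4.3.3. Further steps used Python 3.11.15, numpy 2.4.6, pandas 2.3.3 and matplotlib 3.10.9. Names were matched to RefSeq symbols of GRCm38.p6 (16223 to a symbol, 5684 to a synonym of 1 gene, 8947 kept). Names that are numbers or dates were left out. The probe with the highest mean stood for its gene. Where the dimmer array did not detect a gene, its lowest detected signal of any probe, or the probe's own if higher, gave a lower bound ("at least"). Of 45281 probes, each array detected 13687 to 14258. With 1 sample per day no test was run. The calling was checked on simulated data, a copy of the day 0 array with noise. Changes well beyond the size rule were put into genes detected on every array. The check therefore does not speak for calls near 2-fold or near background.

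Named genes are all members, the 4 detected genes with the widest range in each list, the 5 nearest patterns (1 of those of Odc1 is not reported here), and genes said to be named after their values were seen, as were the further genes named among called or related genes. The members and lists were chosen with earlier results of these data known. Alternatives were median scaling, scaling on reference genes or on T cell identity genes, the deposited normalized values, an offset of 50, no background correction, the mean of a gene's detected probes, a detection p below 0.05 and a 3-fold rule. No per-sample column was left unused.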

Additional observations from a re-analysis of the deposited data

How the results depend on the processing

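No paired analysis was possible because each day had 1 sample and no replicate numbers. The 560 member differences recomputed under 8 settings gave 470 that moved by less than the probe disagreement, 89 that moved further, and 1 called value that turned sign: Mxd3 on day 4 against day 0 was -0.02 after scaling on T cell identity genes. That scaling also gave 0 members higher and 2 lower on day 4, 1 higher and 5 lower on day 7, 0 higher and 6 lower on day 12 and 6 lower on day 18, each against day 0, then 1 lower on day 4 against day 2, 2 lower on day 7 against day 4 and 4 lower on day 18 against day 2. All genes moved with it: 1.61% to 22.6% of calls against day 0 were higher, against 45.6% to 48.8% as reported, and 15.4% to 39.8% after median scaling and 29.5% to 45.9% after scaling on reference genes. Between activated days these shares were 3.4% to 58.1%, 10.8% to 59.8% and 34.7% to 74%, against 36.7% to 52.8%. The 2 members higher on day 4 against day 0 became 0 with median scaling, reference gene scaling, no background correction, an offset of 50 and the 3-fold rule. The 1 member higher on day 12 against day 7 became 0 with the 3-fold rule, the mean of the probes, median scaling, no background correction and an offset of 50. Reference gene scaling gave 3 higher on day 7 against day 4, and median scaling 2 lower on day 18 against day 2. The 3-fold rule left 0 lower on day 7 (against days 0 and 4) and on day 18 against day 2, and the mean of the probes 0 lower on day 7 against day 0. The causes were not tested, apart from the stricter size rule itself.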
